A study of Homo sapiens with 12 samples.

Results

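The mitochondrial ribosome is built in the mitochondrial matrix from ribosomal RNA made there and from proteins that nuclear genes encode and the cytosol translates. It translates the messenger RNAs of mitochondrial DNA, which encode core subunits of the respiratory chain and of ATP synthase. Its small subunit binds the messenger RNA and decodes it. Its large subunit joins the amino acids and is held to the inner membrane, where most of its products are inserted. Part of its proteins descend from bacterial ribosomal proteins, and the rest have no bacterial counterpart.

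The genes described here were the 78 rows of the count table whose identifier mapped to a protein-coding gene with a symbol of MRPL or MRPS, a number and at most a letter from A to C. By symbol, 49 belonged to the large subunit (MRPL) and 29 to the small subunit (MRPS), out of 17786 identifiers in the table. All 78 were among the 13598 genes that passed the filter on low counts. The human line K562, from a chronic myelogenous leukaemia, was grown in RPMI medium with serum and glutamine and divided into 3 groups of 4 libraries. The groups were cells given 2 mM alpha-ketobutyrate (AKB) for 24 h, cells given 2 mM pyruvate for 24 h, and untreated cells. AKB is pyruvate lengthened by a methylene group, and lactate dehydrogenase can use both as electron acceptors for NADH. The labels do not say whether each library had a culture of its own, so the p-values here cover a spread that may be technical. In bulk RNA a lower share of cells with a transcript and less of it per cell cannot be told apart.

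Library totals ran from 15353200 to 21301073 counts, and the 78 genes took 0.541 to 0.609% of them. Erythroid genes of K562 were present in all 12 libraries: GATA1 at 121.1 to 248.8 CPM and HBG2, a fetal globin, at 3807.7 to 5844.2 CPM, where CPM is counts per 1000000 on normalised library sizes. Pyruvate replicates 3 and 4 stood apart from the other 10 libraries in a way that followed the GC content of transcripts. The slope was taken on log2 CPM as a deviation from each gene's mean over all 12 libraries, these 2 included. It was 0.323 and 0.343 per 10 percentage points of GC over all genes, against −0.153 to 0.0157 in the other 10. The results on pyruvate are therefore given with and without these 2.

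The coding sequences show how far the members differ in base composition. The first 120 coding bases are printed for 6 members with the start codon in capitals, from GENCODE 29 on GRCh38. MRPL28 (chr16:366969-371289, minus strand) and MRPS34 (chr16:1771890-1773155, minus strand) are GC-rich and were among the 3 members with the widest spread. MRPL24 (chr1:156737303-156741590, minus strand), which had the widest spread, is nearer to the middle of the members in GC content. MRPL54 (chr19:3762664-3768575, plus strand) is GC-rich too, but its difference lay elsewhere. MRPL42 (chr12:93467488-93516213, plus strand) and MRPS10 (chr6:42206801-42217865, minus strand) are GC-poor over the whole coding sequence, though the stretch printed for MRPS10 is not.
MRPL28: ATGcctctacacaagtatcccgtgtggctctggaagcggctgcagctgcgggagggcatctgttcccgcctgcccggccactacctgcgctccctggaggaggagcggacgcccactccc
MRPS34: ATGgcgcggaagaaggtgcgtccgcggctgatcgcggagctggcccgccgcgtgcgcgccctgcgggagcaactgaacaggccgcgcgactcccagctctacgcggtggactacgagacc
MRPL54: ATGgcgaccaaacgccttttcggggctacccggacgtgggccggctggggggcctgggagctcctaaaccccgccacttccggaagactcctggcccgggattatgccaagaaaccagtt
MRPL24: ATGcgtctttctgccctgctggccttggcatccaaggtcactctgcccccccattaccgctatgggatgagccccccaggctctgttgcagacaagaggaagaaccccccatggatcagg
MRPL42: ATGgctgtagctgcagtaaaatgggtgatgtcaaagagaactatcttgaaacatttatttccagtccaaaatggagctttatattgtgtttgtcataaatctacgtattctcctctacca
MRPS10: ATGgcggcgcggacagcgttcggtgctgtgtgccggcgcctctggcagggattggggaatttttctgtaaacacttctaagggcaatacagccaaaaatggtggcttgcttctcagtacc
Over the whole coding sequence the GC content was 60.4% in MRPL28, 67.0% in MRPS34, 60.1% in MRPL54, 54.2% in MRPL24, 39.9% in MRPL42 and 41.8% in MRPS10, and over the 120 bases printed for MRPS10 it was 55%. The median of the 78 coding sequences was 52.4%. At the third codon position, where most changes leave the amino acid as it is, it was 82.8% in MRPL28, 87.2% in MRPS34, 75.4% in MRPL54, 61.6% in MRPL24, 30.3% in MRPL42 and 38.8% in MRPS10. Over the 78 transcripts the GC content ran from 35.0 to 72.0%, with a median of 50.8% for the large subunit and 47.2% for the small one.

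Under AKB none of the 78 genes passed the test against untreated cells. Most estimates lay slightly below 0: 56 of 78 had a negative log2 fold change, and the median was −0.07 (−0.04 for the large and −0.08 for the small subunit), where the median of all genes tested was 0.01. By edgeR's quasi-likelihood test at an adjusted p below 0.05, 0 members were higher and 0 lower, where 1.37% of all genes were called higher and 0.603% lower. With p below 0.05 before adjustment, 0 were higher and 7 lower, where 8.07% of all genes were higher and 5.13% lower. The differences were small: the 95% interval of the log2 fold change lay within ±0.5 for 71 members and within ±1 for all 78. Counting the CPM of single libraries, all 4 AKB libraries lay below all 4 untreated ones in 19 members and above them in 0, where 8.41% and 8.74% of all genes did so. Both sets of proteins shared the tilt, with 33 of the 48 members that have a bacterial counterpart below 0 and 23 of the 30 that have none.

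**Figure D1:**
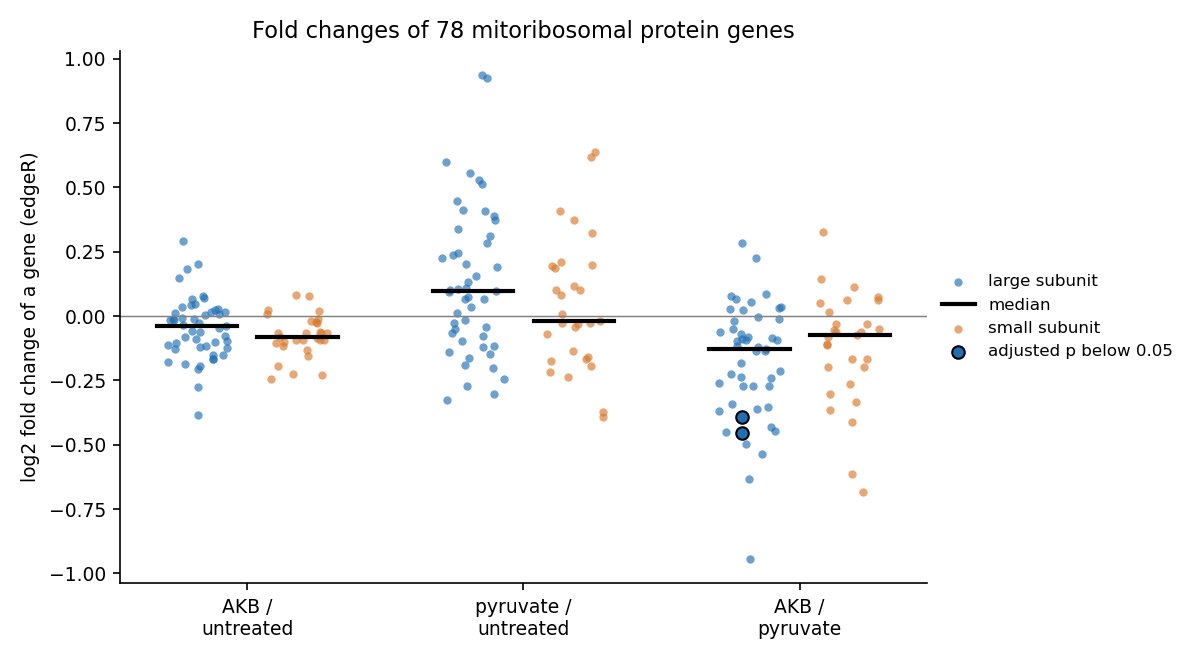
Log2 fold change of each of the 78 genes (points, vertical axis) in the 3 comparisons, for the large and the small subunit, with their medians as bars. The 2 outlined points are MRPL54 and MRPL9 in AKB against pyruvate, the members past an adjusted p of 0.05. The pyruvate comparisons spread more widely than AKB against untreated cells.

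The call of 0 against untreated cells was made in a fit in which the 3 groups shared an estimate of the spread, and it changed without pyruvate replicates 3 and 4. Without these 2 libraries 7 members were lower under AKB at an adjusted p below 0.05 by edgeR, where 4.31% of all genes were lower, and 0 were higher, where 4.86% were. The 7 were MRPL1, MRPL14, MRPL15, MRPL39 and MRPL54 of the large subunit and MRPS7 and MRPS30 of the small one. With the 8 libraries of AKB and untreated cells alone, 6 were lower and 0 higher, where 4.75% and 5.35% of all genes were. DESeq2's Wald test on all 12 libraries called 3 lower and 0 higher, where 1.44% and 2.52% of genes were, and the offset for GC content 4 and 0, where 3.46% and 5.14% were. Leaving out pyruvate replicate 2 alone left 1 member lower, where 0.774% of all genes were. The authors' deposited table calls 4 members lower under AKB and 0 higher, where 2.16% of genes with an adjusted p were lower and 2.73% higher.

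MRPL54, a large-subunit protein with no bacterial counterpart, gave the lowest estimate under AKB. It had 18.97, 19.82, 18.04 and 19.70 CPM in AKB libraries, 22.68, 32.47, 25.46 and 24.17 CPM in pyruvate libraries, and 26.07, 26.38, 23.81 and 23.70 CPM in untreated libraries. All 4 AKB libraries were below the other 8, and the pyruvate libraries overlapped the untreated ones. Against untreated cells its log2 fold change under AKB was −0.39 ± 0.10 (SE, n = 4 each) with an adjusted p of 0.0975 by edgeR's quasi-likelihood test. Without pyruvate replicates 3 and 4 the same fold change had an adjusted p of 0.0369 by that test. The 8 libraries of AKB and untreated cells alone gave 0.0066 by that test, and DESeq2's Wald test on all 12 libraries gave 0.024. Of the fits with a single library left out, only that without pyruvate replicate 2 called it (adjusted p of 0.0185 by edgeR). With an offset for GC content its log2 fold change was −0.47, with an adjusted p of 0.114 by edgeR.

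MRPS30 carries a small-subunit symbol but sits in the large subunit of the assembled ribosome. It had 135.1, 124.3, 118.4 and 122.3 CPM in AKB libraries, 122.3, 130.4, 97.43 and 102.4 CPM in pyruvate libraries, and 148.2, 145.4, 155.3 and 136.8 CPM in untreated libraries. Every treated library was below every untreated one. Its log2 fold change was −0.23 ± 0.09 under AKB and −0.37 ± 0.09 under pyruvate (SE, n = 4 each), with adjusted p of 0.301 and 0.0565 by edgeR, so neither passed. Both treatments share the 4 untreated libraries. In AKB against pyruvate it was 0.14 with a 95% interval of −0.05 to 0.34. Without pyruvate replicates 3 and 4 its adjusted p was 0.0208 under AKB and 0.167 under pyruvate by edgeR, and its log2 fold change in AKB against pyruvate was −0.02. With the offset for GC content it was called lower in both comparisons with untreated cells, with adjusted p of 0.0322 under AKB and 0.0052 under pyruvate by edgeR. DESeq2's Wald test gave 0.179 under AKB and 0.0045 under pyruvate.

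Under pyruvate, again, no member passed the test against untreated cells, but the estimates spread more widely and their median differed between the subunits. Of the 49 large-subunit genes 31 had a log2 fold change above 0, with a median of 0.10. Of the 29 small-subunit genes 14 did, with a median of −0.02, where the median of all genes was −0.01. By edgeR at an adjusted p below 0.05, 0 members were higher and 0 lower, where 1.02% of all genes were called higher and 0.927% lower. With p below 0.05 before adjustment, 22 were higher and 6 lower, where 15% and 13.9% of all genes were. All 4 pyruvate libraries lay above all 4 untreated ones in 8 members (MRPL4, MRPL11, MRPL17, MRPL18, MRPL43, MRPL51, MRPS5 and MRPS33) and below them in 1, MRPS30, where 4.89% and 6% of all genes did so. The 95% interval lay within ±0.5 for 53 members and within ±1 for 73.

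These counts moved with single pyruvate libraries. Without pyruvate replicate 1, 21 members were higher and 4 lower at an adjusted p below 0.05 by edgeR, where 10.2% and 8.87% of all genes were. Without pyruvate replicate 2, 20 were higher and 12 lower, where 14% and 12.2% of all genes were. Without replicates 3 and 4 together, 0 were higher and 0 lower, where 0.151% and 0.56% of all genes were, and the median was 0.06 for the large and 0.03 for the small subunit. With an offset for GC content 8 were higher and 3 lower, where 5.22% and 4.97% of all genes were. DESeq2's Wald test called 16 higher and 1 lower, where 8.06% and 5.33% of genes were. The authors' deposited table calls 12 members higher and 2 lower under pyruvate, where 7.14% and 4.88% of genes with an adjusted p were.

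The members with the widest spread over the 12 libraries were MRPL24, MRPL28 and MRPS34, and in each the spread lay in pyruvate replicates 3 and 4. MRPL24, the counterpart of a protein that starts large-subunit assembly in Escherichia coli, had 7.78, 10.75, 12.42 and 13.15 CPM in AKB libraries, 9.415, 12.45, 30.46 and 32.34 CPM in pyruvate libraries, and 9.975, 10.53, 10.57 and 13.27 CPM in untreated libraries. Pyruvate replicate 2 lay within the range of the untreated libraries and replicate 1 just below it, while replicates 3 and 4 were far above. The log2 fold change of 0.94 ± 0.34 under pyruvate (SE, n = 4 each; adjusted p of 0.113 by edgeR) was −0.02 without replicates 3 and 4, and DESeq2's Wald test on all 12 libraries called it (adjusted p of 0.0365).

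MRPL28 had 48.74, 56.02, 57.10 and 62.98 CPM in AKB libraries, 53.29, 60.55, 115.0 and 119.2 CPM in pyruvate libraries, and 40.34, 47.92, 41.27 and 54.28 CPM in untreated libraries. Replicates 3 and 4 were far above the rest, and the other pyruvate libraries overlapped the AKB ones. Under pyruvate its log2 fold change was 0.92 ± 0.23 (SE, n = 4 each; adjusted p of 0.0591 by edgeR), and 0.31 without replicates 3 and 4. It was called with the offset for GC content (0.62, adjusted p of 0.0129 by edgeR) and by DESeq2's Wald test (adjusted p of 0.0025). MRPS34, a small-subunit protein with no bacterial counterpart, had 60.50, 65.71, 80.41 and 65.57 CPM in AKB libraries, 71.71, 55.74, 143.7 and 145.0 CPM in pyruvate libraries, and 58.25, 66.10, 67.89 and 75.33 CPM in untreated libraries. Its log2 fold change under pyruvate was 0.64 ± 0.26 (SE, n = 4 each; adjusted p of 0.138 by edgeR), and −0.07 without replicates 3 and 4.

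Across the 78 members, the difference between pyruvate replicates 3 and 4 and the other 10 libraries ran with GC content. Spearman's rho was 0.76 over the 78 members and 0.77 over 12266 protein-coding genes, given as a description, since these genes share the same 12 libraries. In the 13 members under 42% GC the median difference was −0.36 on the log2 scale, and 1 of them lay above 0. In the 27 members from 42 to 50% it was −0.01, in the 23 from 50 to 58% it was 0.27, and in the 15 over 58% it was 0.64, with 14 of the 15 above 0. MRPL42, at 36.5% GC, had 180.4 and 184.5 CPM in pyruvate replicates 1 and 2 but 123.1 and 116.1 CPM in replicates 3 and 4. It had 187.9, 169.7, 178.1 and 169.9 CPM in AKB libraries, and 199.7, 190.3, 191.9 and 174.3 CPM in untreated libraries. GC content did not order every member: MRPL24, at 54.6%, differed most, by 1.52, while MRPL54, at 60.9%, differed by 0.12, and MRPL23, at 64.5%, by 0.07. Over the other 10 libraries the SD of log2 CPM had a median of 0.12 in the members, close to the 0.14 of all protein-coding genes tested.

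**Figure D2:**
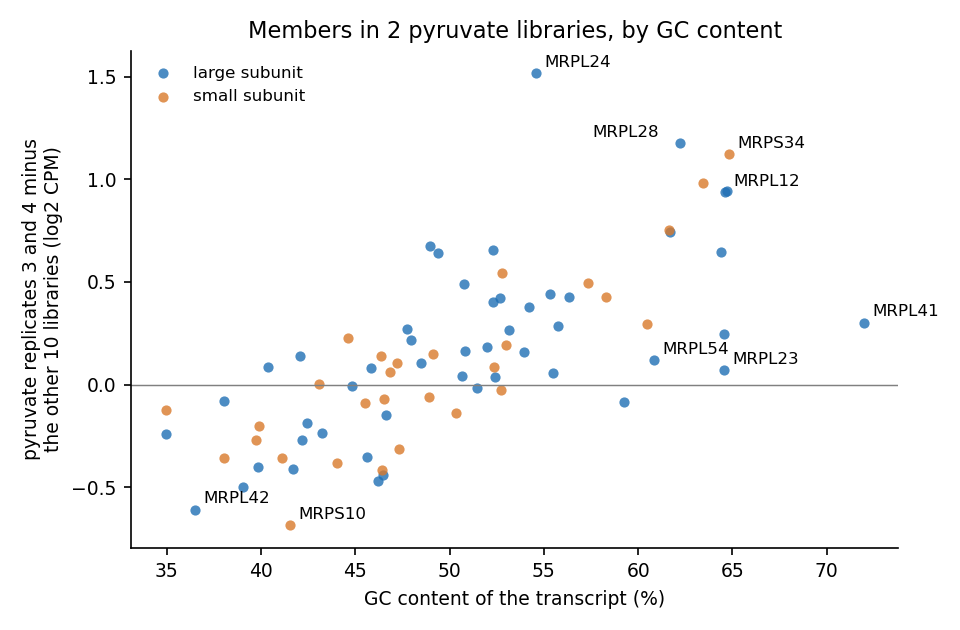
GC content of each member's transcript (horizontal axis, %) against the mean log2 CPM of pyruvate replicates 3 and 4 minus that of the other 10 libraries (vertical axis), by subunit. GC-poor members such as MRPL42 lie below 0 and most GC-rich ones above it, with MRPL54, MRPL23 and MRPL41 lower than others of like GC content.

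The large and small subunits were compared in each library by the ratio of their summed CPM. The ratio was 1.390, 1.424, 1.402 and 1.447 in AKB libraries, 1.436, 1.470, 1.474 and 1.473 in pyruvate libraries, and 1.404, 1.405, 1.378 and 1.422 in untreated libraries. All 4 pyruvate libraries were above the untreated ones, replicates 1 and 2 included, and the AKB libraries overlapped both groups. The means were 1.416 ± 0.025 for AKB, 1.463 ± 0.018 for pyruvate and 1.402 ± 0.018 for untreated cells (SD, n = 4 each). The summed CPM of the large subunit was 3208 ± 51 in AKB, 3533 ± 150.4 in pyruvate and 3365 ± 37 in untreated cells (SD, n = 4 each). That of the small subunit was 2266 ± 40 in AKB, 2413 ± 77 in pyruvate and 2400.0 ± 25 in untreated cells (SD, n = 4 each). In both sums the AKB libraries lay below all untreated ones.

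A second measure took the median deviation of each subunit's genes from their own 12-library mean. Large minus small, it was −0.02 ± 0.02 in AKB, 0.07 ± 0.04 in pyruvate and −0.04 ± 0.03 in untreated cells (SD of log2 values, n = 4 each). After the offset for GC content it was −0.02 ± 0.03 in AKB, 0.01 ± 0.02 in pyruvate and −0.01 ± 0.04 in untreated cells, and the groups overlapped. The median GC content of the transcripts was 50.8% in the large and 47.2% in the small subunit. The offset was applied to this second measure and not to the ratio of summed CPM, so the part of GC content in the ratio was not tested. Counting MRPS18A and MRPS30 with the large subunit, where they sit in the ribosome, and leaving out MRPS36, the difference in median log2 fold change between large and small was 0.04 under AKB and 0.10 under pyruvate, against 0.04 and 0.12 by symbol.

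**Figure D3:**
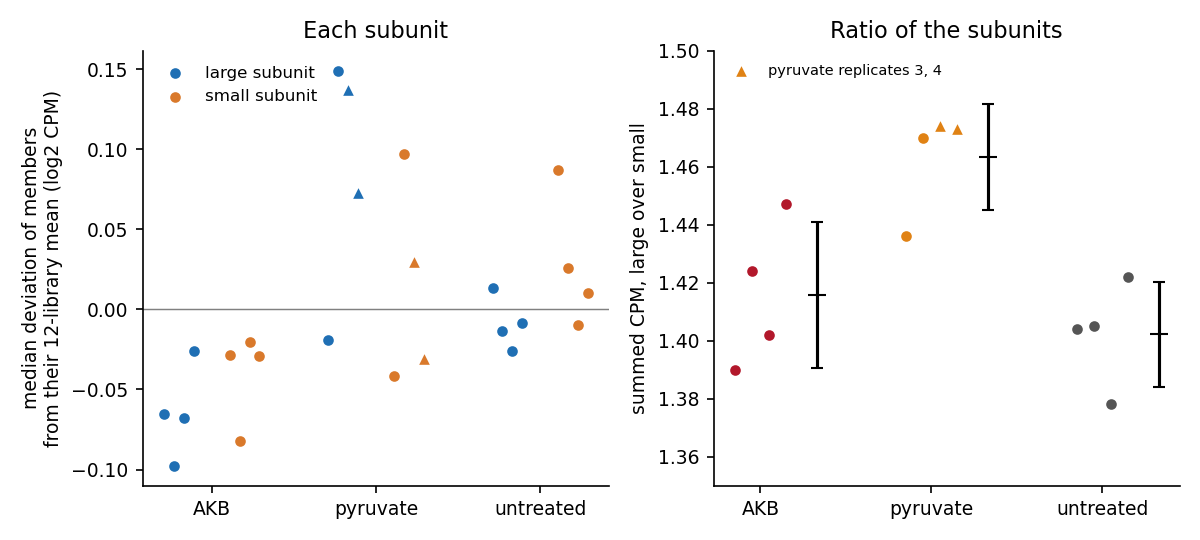
Left, the median deviation of the genes of each subunit from their 12-library mean in each library (log2 CPM), and right, the ratio of summed CPM, large over small, with mean and SD beside the 4 libraries of each group. Triangles are pyruvate replicates 3 and 4, and the right axis does not start at 0. The 4 pyruvate ratios lie between 1.436 and 1.474, above the untreated ones.

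Set against pyruvate at the same dose and time, AKB gave 2 large-subunit genes that passed the test, both lower. Of the 78 members 60 had a log2 fold change below 0, with a median of −0.11 (−0.13 for the large and −0.07 for the small subunit), where the median of all genes was 0.03. By edgeR at an adjusted p below 0.05, 0 members were higher and 2 lower in AKB, where 1.94% of all genes were called higher and 1.19% lower. With p below 0.05 before adjustment, 1 was higher and 30 lower, where 12.2% and 12.1% of all genes were. All 4 AKB libraries lay below all 4 pyruvate ones in 7 members and above them in 0, where 4.54% and 7.08% of all genes did so. For the rest the data do not show that the 2 acids act alike: the 95% interval lay within ±0.5 for 53 members and within ±1 for 74.

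The members called were MRPL54, whose values per library stand above, and MRPL9. MRPL54 had a log2 fold change of −0.45 ± 0.10 in AKB against pyruvate (SE, n = 4 each; adjusted p of 0.0433 by edgeR). MRPL9 (chr1:151759643-151763564, minus strand), whose counterpart in Escherichia coli reaches out from the base of the stalk by which transfer RNA leaves, had 43.01, 45.15, 52.53 and 48.35 CPM in AKB libraries, 54.24, 59.71, 68.24 and 66.07 CPM in pyruvate libraries, and 46.73, 50.62, 46.47 and 56.27 CPM in untreated libraries. All 4 pyruvate libraries were above all 4 AKB ones, and the AKB libraries overlapped the untreated ones. Its log2 fold change was −0.39 ± 0.09 in AKB against pyruvate (SE, n = 4 each; adjusted p of 0.0475 by edgeR). Against untreated cells it was −0.08 under AKB (adjusted p of 0.793) and 0.31 under pyruvate (0.0839), both by edgeR. DESeq2's Wald test called MRPL9 higher under pyruvate than in untreated cells (adjusted p of 0.0212).

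Both calls were close to the threshold. Leaving out any of the 4 untreated libraries, any of the 4 AKB libraries or pyruvate replicate 3 or 4 ended both, with adjusted p between 0.0535 and 0.147 by edgeR, and with the 8 libraries of the 2 treatments alone 0 members were called, where 0.0449% of all genes were higher and 0% lower. DESeq2's Wald test called 19 lower and 0 higher, where 6.49% and 4.68% of genes were, and the offset for GC content 12 and 1, where 6.36% and 8.2% were. Without pyruvate replicate 1, 24 members were lower, where 6.86% of all genes were. Without pyruvate replicate 2, 18 were lower, where 8.6% of all genes were. Without replicates 3 and 4 together, 4 were lower (MRPL3, MRPL15, MRPL50 and MRPL54) and 0 higher, where 1.84% and 2.52% of all genes were. There MRPL54 was at −0.53 with an adjusted p of 0.0366, and MRPL9 at −0.27 with 0.133, both by edgeR. With the offset for GC content the adjusted p was 0.188 for MRPL54 and 0.0185 for MRPL9 by edgeR. The authors' deposited table calls 13 members lower and 1 higher in AKB against pyruvate, where 5.73% and 4.32% of genes with an adjusted p were.

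**Figure D4:**
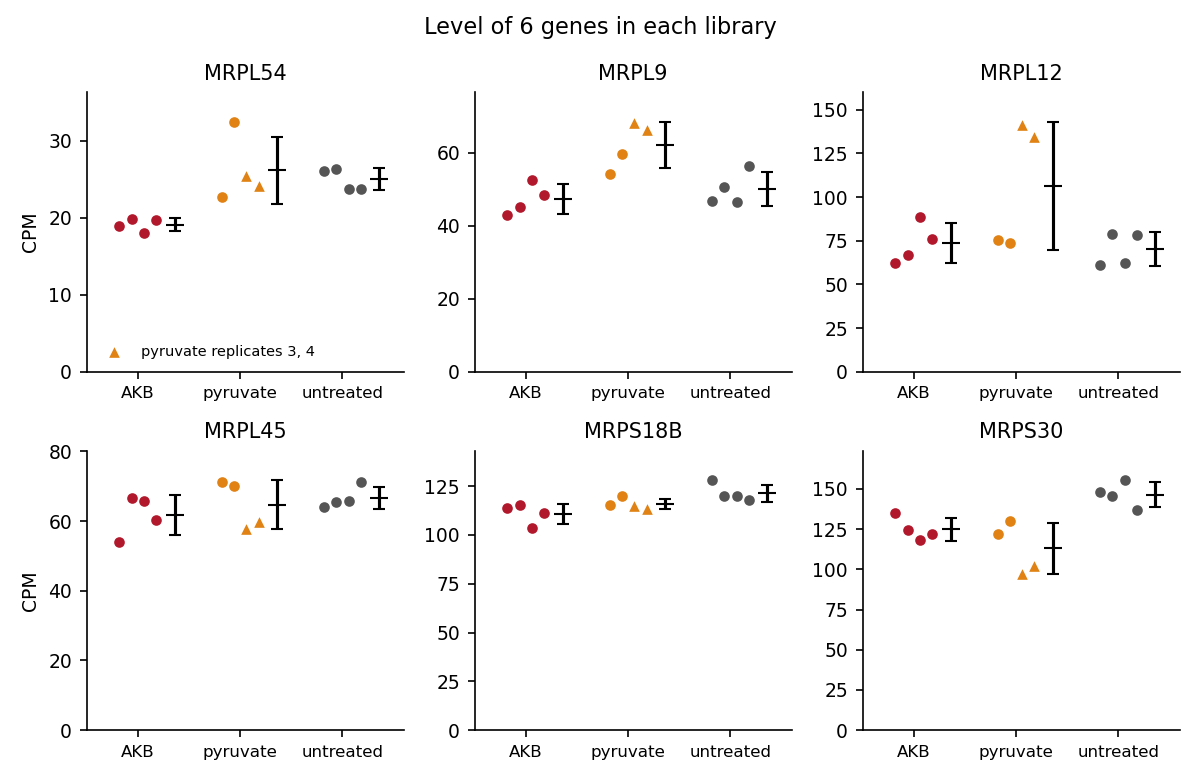
CPM of 6 members in each library of the AKB, pyruvate and untreated groups (points; triangles are pyruvate replicates 3 and 4), with mean and SD beside them and axes from 0. MRPL54 is lowest in the 4 AKB libraries, MRPS30 is highest in the 4 untreated ones, and MRPL12 is highest in pyruvate replicates 3 and 4.

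The stalk of the large subunit, which recruits translation factors, holds MRPL12 on a base with MRPL10 and MRPL11, and none of the 3 genes passed the test. MRPL12 had 62.43, 66.89, 88.37 and 76.07 CPM in AKB libraries, 75.56, 73.72, 141.3 and 134.6 CPM in pyruvate libraries, and 61.06, 78.89, 62.25 and 78.53 CPM in untreated libraries. Pyruvate replicates 3 and 4 stood above the rest, and its log2 fold change under pyruvate was 0.60, or 0.09 without them. MRPL11 had 44.88, 49.72, 60.44 and 53.22 CPM in AKB libraries, 57.62, 60.91, 77.88 and 71.11 CPM in pyruvate libraries, and 47.28, 52.33, 50.97 and 54.04 CPM in untreated libraries. Here all 4 pyruvate libraries were above all 4 untreated ones, with a log2 fold change of 0.39 and an adjusted p of 0.0736 by edgeR, or 0.21 and 0.364 without replicates 3 and 4. DESeq2's Wald test called MRPL11 (adjusted p of 0.0134) and MRPL12 (0.0351) higher. In AKB against pyruvate the log2 fold change was −0.36 for MRPL11 and −0.53 for MRPL12 (adjusted p of 0.0794 and 0.151 by edgeR). There DESeq2's Wald test called MRPL11 lower (0.0202), and edgeR with the offset for GC content called MRPL12 lower (−0.31, adjusted p of 0.0449). MRPL10 lay between 37.64 and 52.68 CPM in all 12 libraries, and its log2 fold change was −0.06 under AKB and −0.05 under pyruvate, or −0.20 without replicates 3 and 4. The differences among the 3 genes were not tested.

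MRPL45, which lies at the exit of the tunnel and ties the ribosome to the inner membrane, had 54.14, 66.52, 65.71 and 60.26 CPM in AKB libraries, 71.36, 69.99, 57.83 and 59.77 CPM in pyruvate libraries, and 64.04, 65.37, 65.89 and 71.17 CPM in untreated libraries. The groups overlapped, and the 95% interval of its log2 fold change was −0.30 to 0.08 under AKB and −0.23 to 0.15 under pyruvate. Under pyruvate its log2 fold change was −0.04, turned to 0.09 without replicates 3 and 4, and to 0.025 with the offset for GC content. MRPL58, a peptidyl-tRNA hydrolase built into the large subunit, averaged 36.62 ± 3.98 CPM in AKB, 38.83 ± 3.68 CPM in pyruvate and 36.36 ± 1.2 CPM in untreated cells (SD, n = 4 each). Its groups overlapped too. MRPS12, of the decoding centre, had 47.90, 49.96, 55.93 and 50.57 CPM in AKB libraries, 51.64, 45.34, 88.85 and 86.04 CPM in pyruvate libraries, and 50.98, 57.84, 53.31 and 55.73 CPM in untreated libraries. Pyruvate replicates 3 and 4 were again above the rest, and its log2 fold change under pyruvate was 0.32, or −0.17 without them.

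The genes MRPS18A, MRPS18B and MRPS18C encode paralogs that take different places in the ribosome, MRPS18A in the large subunit. MRPS18A, at 57.3% GC, averaged 47.18 ± 4.26 CPM in AKB, 60.67 ± 9.14 CPM in pyruvate and 46.88 ± 4.96 CPM in untreated cells (SD, n = 4 each). Its log2 fold change under pyruvate was 0.37 with an adjusted p of 0.0865 by edgeR, and 0.19 without replicates 3 and 4, and DESeq2's Wald test called it (adjusted p of 0.0233). MRPS18B had 113.6, 115.1, 103.5 and 111.0 CPM in AKB libraries, 115.3, 119.7, 115.0 and 113.4 CPM in pyruvate libraries, and 127.9, 120.0, 119.7 and 118.0 CPM in untreated libraries. All 4 AKB libraries were below all 4 untreated ones, but its log2 fold change of −0.13 had an adjusted p of 0.324 by edgeR. MRPS18C, at 38.0% GC, averaged 76.73 ± 5.76 CPM in AKB, 70.95 ± 12.4 CPM in pyruvate and 77.86 ± 2.11 CPM in untreated cells (SD, n = 4 each). The table also has rows for pseudogenes of MRPS18A, MRPS17, MRPL35 and MRPL42 (1 each) and of MRPS31 (2). GENCODE 29 has a read-through gene over MRPS24 and an antisense gene at MRPL23. The sources do not say how reads were shared in these cases. MRPS36, now known as a part of the 2-oxoglutarate dehydrogenase complex in spite of its name, had a log2 fold change of −0.09 under AKB and −0.16 under pyruvate, with adjusted p of 0.701 and 0.212 by edgeR. Under pyruvate it was −0.12 without replicates 3 and 4, and the offset for GC content turned it to 0.19 (adjusted p of 0.365 by edgeR).

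Levels between genes were compared per kilobase of transcript, with the lower median by length among the transcripts that APPRIS ranks highest. In untreated cells they ran from 8.58 CPM per kb for MRPL17 to 205.5 CPM per kb for MRPL42. The median was 43.2 CPM per kb over the 78 members, 40.9 for the large and 47.4 for the small subunit, where that of all protein-coding genes tested was 10.3. MRPL42 was first in all 3 groups, with 191.8 CPM per kb in AKB, 164.2 in pyruvate and 205.5 in untreated cells, but its candidate transcripts ran from 920 to 15582 bases, so its place rests on that choice. MRPL17 was last in AKB and untreated cells and next to last in pyruvate, with 9.75, 11.4 and 8.58 CPM per kb in AKB, pyruvate and untreated cells. It had 17.62, 19.95, 16.87 and 22.35 CPM in AKB libraries, 19.60, 25.01, 24.19 and 21.04 CPM in pyruvate libraries, and 17.52, 15.79, 17.03 and 17.25 CPM in untreated libraries. All 4 pyruvate libraries were above all 4 untreated ones, and its log2 fold change under pyruvate was 0.41 (adjusted p of 0.0636 by edgeR) and 0.40 without replicates 3 and 4 (adjusted p of 0.179 by edgeR). It was called higher with the offset for GC content (adjusted p of 0.0186 by edgeR) and by DESeq2's Wald test (0.0078).

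**Figure D5:**
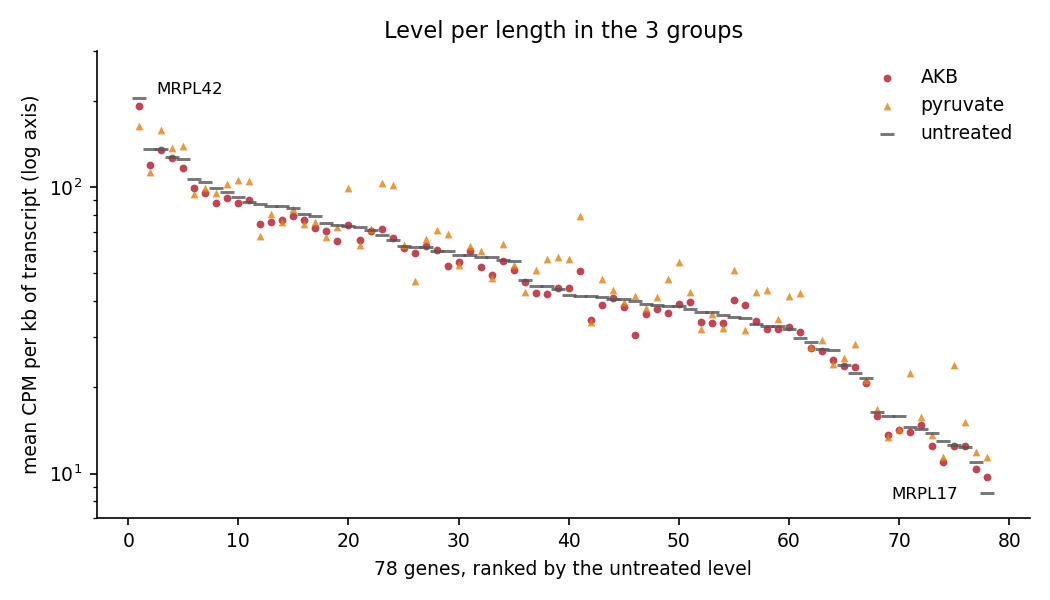
Mean CPM per kb of transcript (log axis) of the 78 members in the AKB, pyruvate and untreated groups, ranked by the untreated level. Levels span 8.58 to 205.5 CPM per kb in untreated cells.

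Of the 78 promoters, 69 matched RefSeq's table, which gives 250 bases before and 50 after each start on GRCh38.p14. MRPL2, MRPL10, MRPL13, MRPL15, MRPL21, MRPL23, MRPL35, MRPS28 and MRPS36 had no match. Motifs were searched on both strands, first those of factors known to act on nuclear genes of mitochondria. The letters CCGGAAG, bound by GABPA and other ETS factors, stood in 29 of the 69 (42.0%), where 14.23% of 15843 protein-coding promoters held them. Before the start alone they stood in 23 (33.3%), where 11.8% of promoters did. The full palindromic NRF1 site stood in 1 (1.45%), where 1.75% of promoters held it, and its core GCATGCGC in 6 (8.7%), where 4.26% did. The letters ATGGCGGC, which match the YY1 site, stood in 19 (27.5%), where 4.49% of promoters held them, but in 16 of these 19 the coding sequence itself opens with those letters. Before the start they stood in 3 (4.35%), where 1.48% of promoters held them. An E-box, CACGTG, stood in 6 (8.7%), where 8.88% of promoters held one, the CCAAT box in 20 (28.99%), where 36.36% did, and TATAAA in 2 (2.9%), where 9.63% did. No member promoter held TGATGCAA, which matches the ATF4 and C/EBP element, where 0.67% of promoters did. The NRF1 site contains its own core, and no other motif searched contains another. These shares are descriptions, and a match is not a bound site.

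For the named members with an ETS match before the start that RefSeq gives, 30 bases around the match nearest to it read as follows, on the strand of the gene and with the match in capitals.
MRPL54, chr19:3762650-3762679, plus strand: gccactgacgtCTTCCGGaaacgtgcactt
MRPL58, chr17:75012640-75012669, plus strand: gaccgcggggaggaagcgcccgCCGGAAGc
MRPS18A, chr6:43687804-43687833, minus strand: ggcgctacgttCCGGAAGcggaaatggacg
MRPS18C, chr4:83455825-83455854, plus strand: gggctcgcggaCCGGAAGcacgcataaact
MRPS34, chr16:1773135-1773164, minus strand: tcttccggtgaCTTCCGGccggaccgctga
By the GENCODE 29 coordinates above, the match of MRPL54 lies across the start of the gene and the marked match of MRPS34 after it. The stretch printed for MRPS34 holds the same letters once more, in lower case, and that copy lies before the GENCODE 29 start. Of these 5, MRPL54 was low in AKB libraries, MRPS34 was high in pyruvate replicates 3 and 4, and the AKB and untreated libraries of MRPL58, MRPS18A and MRPS18C overlapped.

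Some members start close to a neighbour on the other strand. By GENCODE 29, 17 of the 78 (21.8%) start within 1000 bp of a protein-coding gene on the other strand, where 10.1% of protein-coding genes tested do. MRPL46 and MRPS11, a large and a small subunit gene, face each other with 34 bp between their starts, and MRPL36 and MRPL47 face NDUFS6 and NDUFB5, which encode complex I subunits. The pair of MRPL46 and MRPS11 was chosen after its values were seen. MRPL46 had 26.55, 27.98, 25.53 and 29.08 CPM in AKB libraries, and 28.49, 27.17, 25.87 and 29.61 CPM in untreated libraries. MRPS11 had 45.07, 38.48, 37.89 and 38.71 CPM in AKB libraries, and 48.05, 50.37, 48.43 and 43.00 CPM in untreated libraries. Their log2 fold changes under AKB were −0.03 for MRPL46 and −0.25 for MRPS11, neither of which passed the test, and the difference between them was not tested.

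The other genes of mitochondrial translation were counted in lists by function, and few passed. In AKB against untreated cells, 1 of 25 genes of ribosome assembly and ribosomal RNA modification was lower at an adjusted p below 0.05 by edgeR, where 0.603% of all genes were. It was ERAL1, a GTPase that binds the small-subunit ribosomal RNA, with 109.8, 108.5, 111.6 and 113.4 CPM in AKB libraries, 120.3, 124.5, 118.6 and 123.8 CPM in pyruvate libraries, and 130.7, 126.7, 126.4 and 129.5 CPM in untreated libraries. All 4 AKB libraries were below the other 8. The log2 fold change of ERAL1 was −0.21 ± 0.05 under AKB (SE, n = 4 each; adjusted p of 0.0445 by edgeR), and without pyruvate replicates 3 and 4 it was −0.21 with an adjusted p of 0.0036 by edgeR. With the offset for GC content ERAL1 was called lower under both treatments by edgeR. It was at −0.24 under AKB (adjusted p of 0.0188) and −0.19 under pyruvate (0.0466). In AKB against pyruvate it was −0.05 with that offset (adjusted p of 0.586 by edgeR). In AKB against pyruvate, 1 of the same 25 was lower, where 1.19% of all genes were. It was TRUB2, which acts in pseudouridine formation on mitochondrial RNA, with 97.02, 93.32, 95.46 and 99.72 CPM in AKB libraries and 107.4, 116.5, 127.7 and 124.8 CPM in pyruvate libraries. TRUB2 had a log2 fold change of −0.31 ± 0.06 (SE, n = 4 each; adjusted p of 0.0313 by edgeR), and −0.22 without pyruvate replicates 3 and 4 (adjusted p of 0.0414 by edgeR).

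In the main analysis no gene of the other lists passed in any comparison. These lists held 13 translation factors and 5 mitoribosomal proteins with other symbols (such as DAP3). They also held 4 genes of messenger RNA stability and membrane insertion, and 4 of mitochondrial transcription. At an unadjusted p below 0.05 by edgeR, 3 of the 13 translation factors and 1 of the 4 transcription genes were lower under AKB than in untreated cells. Of the 25 assembly genes 6 were lower and 1 higher, where 5.13% of all genes were lower and 8.07% higher. Under pyruvate at that p, FASTKD2, GTPBP10, METTL15, NOA1, NSUN4 and TFB1M of the assembly genes were lower. GTPBP6, MPV17L2 and TRUB2 were higher, where 13.9% of all genes were lower and 15% higher. Of the other lists GUF1, TFB2M and LRPPRC were lower there, and MTRFR, TACO1 and AURKAIP1 higher. Without pyruvate replicates 3 and 4, 7 of 25 assembly genes, 3 of 13 translation factors, 1 of 4 transcription genes and 1 of 4 stability and insertion genes were lower under AKB at an adjusted p below 0.05, where 4.31% of all genes were. AURKAIP1, a small-subunit protein with a transcript of 67.1% GC, was named after its values were seen. It had 33.69, 51.82, 67.87 and 54.03 CPM in AKB libraries, 67.86, 49.73, 183.8 and 178.8 CPM in pyruvate libraries, and 37.47, 53.55, 45.55 and 68.82 CPM in untreated libraries. Pyruvate replicates 3 and 4 were again far above the rest. The log2 fold change under pyruvate was 1.23 with an adjusted p of 0.0892 by edgeR, and 0.20 without these 2 libraries. With the offset for GC content AURKAIP1 was called by edgeR. It was at 0.76 under pyruvate (adjusted p of 0.0421) and −0.87 in AKB against pyruvate (0.0197). PDF, TACO1, TFB2M, GFM1 and MTIF2, of the same lists, were also named after their values were seen. With that offset PDF was lower under AKB (adjusted p of 0.00046) and pyruvate (0.0071), and TACO1 higher under pyruvate (0.0455), by edgeR. TFB2M was lower under AKB (0.0024) and pyruvate (0.0393) with it, and GFM1 under AKB (0.0170), by edgeR. In AKB against pyruvate GFM1 (0.0061) and MTIF2 (0.0180) were lower, also with it by edgeR. Of all genes the offset called 3.46% lower under AKB, and 5.22% higher and 4.97% lower under pyruvate. In AKB against pyruvate it called 6.36% lower. Further assembly genes were called with it and are not named. Without pyruvate replicates 3 and 4 the adjusted p of PDF under pyruvate was 0.0389 by edgeR.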

How the data were processed

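Poly(A) RNA of 12 K562 libraries was sequenced, per the labels' protocols, from a kit that fragments RNA before random-primed reverse transcription. The deposited values are expected counts per gene made by the authors with Salmon 1.2.1, per the submitters' processing notes, and are whole numbers, so rounding changed none. No source used here names the genome build or the settings. Per the file headers, the authors' 3 deposited comparison tables hold the mean normalised signal, the log2 fold change, a test score and p-values. The submitters' processing notes name DESeq2 1.26.0 and R 3.6.3. Their fold changes put untreated over treated cells and AKB over pyruvate, and only their counts of calls are used.

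Counts were analysed with R 4.3.3 and edgeR 4.0.16: filterByExpr (minimum count 10), TMM, 1 term per group and the quasi-likelihood test over all 12 libraries, with Benjamini-Hochberg adjustment over 13598 genes and calls at 0.05. Standard errors derive from the F statistic, intervals are 95%, and means ± SD are CPM of 4 libraries. The count test was checked on simulated data. Alternatives were other normalisations and filters, DESeq2 1.42.0, limma-voom (limma 3.58.1), a GC-content offset (a spline with 5 degrees of freedom per library), a replicate block and leaving out libraries. Symbols matched 95.2% of identifiers and GC content 95.0%, from GENCODE 29 on GRCh38. Within each group, pairs of libraries differed by more than sampling noise (chi-square per degree of freedom 4.39 to 69.2), so none was counted as a repeat.

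The members, lists and tests were chosen with earlier results of these data known. Named members are those called, up to 5 per direction, those fixed by name for their role, the highest and lowest per length and the 3 with the widest spread. MRPL1, MRPL3, MRPL14, MRPL15, MRPL39, MRPL46, MRPL50, MRPS7, MRPS10 and MRPS11 were named after their values were seen. So were MRPL4, MRPL18, MRPL23, MRPL41, MRPL43, MRPL51, MRPS5 and MRPS33.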

Additional observations from a re-analysis of the deposited data

Results flagged for a closer look

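In 66 groups of 4 libraries, 3 had a library far from the other 3 by Dixon's test, which chance gives in about 1 of 20 groups. MRPL58 stood at 44.31 CPM in pyruvate replicate 2, against 36.57 to 37.48 CPM in the other pyruvate libraries. The ratio of summed CPM, large over small subunit, was 1.436 in pyruvate replicate 1, below 1.470 to 1.474 in the others. The median deviation of small-subunit genes was −0.082 in AKB replicate 2, below −0.029 to −0.020 in the other AKB libraries.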

How the results depend on the processing

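Over 1242 alternative fits of the 54 fold changes of named members, 28 lost a call and 72 gained one. The sign turned in 62, in none of which the value was called before or after, such as MRPL24, MRPS12 and MRPS34 under pyruvate without pyruvate replicates 3 and 4. Members lower under AKB against untreated cells numbered 0 in the main analysis, 3 by DESeq2's Wald test, 6 with the 8 libraries alone, 4 with the GC offset, 3 with the GC offset and replicate block (2.99% of all genes), 7 without pyruvate replicates 3 and 4, and 0 to 1 with single libraries left out. Under pyruvate, members higher and lower numbered 16 and 1 by DESeq2, 4 and 1 with the replicate block (2.25% and 1.9% of all genes), 8 and 3 with the GC offset, 11 and 5 with offset and block (5.84% and 5.1% of all genes), and 0 to 21 and 0 to 12 with single libraries left out. In AKB against pyruvate, members lower numbered 1 by library size alone (0.684% of all genes), 0 without the filter (0.388%), 19 by DESeq2, 0 with the 8 libraries alone, 12 with the GC offset (and 1 higher), 18 with offset and block (and 1 higher, where 6.88% and 7.75% of all genes were), 4 without pyruvate replicates 3 and 4, and 0 to 24 with single libraries left out. The cause was not tested.

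The large-minus-small difference in median log2 fold change under AKB was 0.014 with the GC offset, 0.0074 with offset and block, and 0.018 to 0.044 with single libraries left out. Under pyruvate it was 0.12 in the main analysis, 0.017 with the GC offset, 0.020 with offset and block, and 0.036 without pyruvate replicates 3 and 4, and the small-subunit median was 0.039 with the offset. In AKB against pyruvate it was −0.011 without pyruvate replicates 3 and 4. The deviations of samples with the same replicate number had r from −0.10 to 0.20 over 12 pairs. Over the 36 pairs with other numbers r ran from −0.24 to 0.19. The labels state no pairing, and ranges so alike do not settle whether the numbers mark one. The block changed no other count by over 1.5 times. With the block, MRPS30 (adjusted p 0.042 by edgeR) was called lower and MRPL28 (0.0387) and MRPL11 (0.0352) higher under pyruvate.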
